A study of Homo sapiens with 8 samples.

Results

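The Hippo pathway was followed through 10 genes, YAP1, WWTR1, TEAD1, TEAD4, LATS1, LATS2, CTGF, CYR61, ANKRD1 and AMOTL2, out of the 36337 gene names of the array. Every probe that carries one of these names in the scanner output was taken, which gave 12 probes, and the brightest probe over the 8 arrays stood for a gene. One-colour Agilent SurePrint G3 arrays measured the transcriptome of 2 thyroid cell lines, to look for transcripts that answer to miR-375, a miRNA that is abundant in medullary thyroid carcinoma. Nthy-ori 3-1 is an immortalized line from normal follicular cells, and TT is a line from a medullary carcinoma, a tumour of the calcitonin-producing C cells. Of the 4 arrays of Nthy-ori 3-1 cells, 2 were from cultures given pre-miR-375, a synthetic mimic of the miRNA, and 2 from control cultures. Of the 4 arrays of TT cells, 2 were from cultures given antagomiR-375, an antisense inhibitor, and 2 from control cultures. The array labels name the controls CTL only, while the methods of the study name pre-miR-CTL for Nthy-ori 3-1 cells and antagomiR-CTL for TT cells. All cells were transfected for 48 h with a lipid reagent, at 5 nM of mimic or 20 nM of antagomiR by the labels of the arrays. Both lines are single established lines, so each group shows the behaviour of 1 line.

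In the Hippo pathway, upstream kinases activate the kinases LATS1 and LATS2, which phosphorylate the coactivators YAP (YAP1) and TAZ (WWTR1) and keep them out of the nucleus. YAP and TAZ that reach the nucleus bind the TEAD factors, which hold the DNA, and switch on genes such as CTGF, CYR61, ANKRD1 and AMOTL2. The pathway is known for its part in organ size and in the response of cells to density and stretch, and YAP1 is known from other tissues as a target of miR-375. The arrays measured transcripts, so they do not show phosphorylation or the place of YAP and TAZ in the cell.

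The sequences that these results turn on are printed 5′ to 3′. The first is the mature miRNA (RefSeq, GRCh38.p14, chr2:219001648-219001669, minus strand), with its seed, bases 2 to 8, in capitals. The second and the third are the probes that read YAP1 (hg19, chr11:102100584-102100643, plus strand) and WWTR1 (hg19, chr3:149238593-149238652, minus strand), the coactivators, and show which part of each transcript was measured. Capitals in a probe mark GAACAAA, which pairs with bases 2 to 7 of the miRNA and has an A facing its first base. The last pair are the 250 bases before the start of CTGF (GRCh38.p14, chr6:131951373-131951622, minus strand) and of ANKRD1 (GRCh38.p14, chr10:90921088-90921337, minus strand), which had, of the 4 target genes among the 10, the lowest signal against control with pre-miR-375. Capitals there mark GGAATG, the core that TEAD factors bind, or CATTCC, its reverse complement.
hsa-miR-375-3p: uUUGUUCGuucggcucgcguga
YAP1 probe: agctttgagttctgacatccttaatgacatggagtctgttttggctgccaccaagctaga
WWTR1 probe: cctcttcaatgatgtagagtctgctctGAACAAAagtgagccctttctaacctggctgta
CTGF promoter: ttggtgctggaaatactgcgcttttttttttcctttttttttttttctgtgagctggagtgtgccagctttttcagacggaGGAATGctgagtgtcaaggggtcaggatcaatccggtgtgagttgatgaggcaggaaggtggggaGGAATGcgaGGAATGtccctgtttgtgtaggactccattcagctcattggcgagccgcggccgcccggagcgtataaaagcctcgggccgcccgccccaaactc
ANKRD1 promoter: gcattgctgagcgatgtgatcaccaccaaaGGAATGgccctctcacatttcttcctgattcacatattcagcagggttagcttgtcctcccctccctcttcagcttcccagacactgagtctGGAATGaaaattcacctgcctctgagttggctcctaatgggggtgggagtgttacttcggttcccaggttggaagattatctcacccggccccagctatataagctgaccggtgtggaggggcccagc

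The WWTR1 probe held GAACAAA once, whereas no other probe of the 10 genes did, and no probe of the 10 held CGAACAA, the match to the whole seed. Among all 50599 probes, 392 (0.775%) held GAACAAA. A match within a probe is a description of its letters and does not show that the miRNA binds there. RefSeq promoter windows were found for 7 of the 10 genes. None was found for CYR61, TEAD1 and TEAD4, so the core was not counted in these. The TEAD core, on either strand and with no overlap between matches, stood 3 times in the CTGF window, at 169, 104 and 95 bases before the start, and 2 times in the ANKRD1 window, at 220 and 128 bases. It stood once in the YAP1 window and in 1 of the 2 AMOTL2 windows, and not in these letters in the windows of WWTR1, LATS1 and LATS2. Of 35116 promoter windows of the same length, 11.9% held the core at least once, 0.928% at least 2 times and 0.0797% at least 3 times.

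All values below are log2 values of the background-subtracted signal after quantile normalization of the 8 arrays, so a difference of 1 is a 2-fold change, and the level of one probe cannot be set against that of another. Between 26101 and 30916 of the 50599 probes were well above background on an array, and 0 spots were saturated. The 2 arrays per group are called biological replicates in the methods of the study. Within a line, arrays that share a replicate number share a slide, and no slide carried both lines. For any single gene, 2 arrays against 2 allow an exact two-sided permutation p of 0.333 at the lowest, and the number of arrays limits the precision of every value. SEC23A, a coat protein gene of the secretory pathway on which the study centres, differed from control by -1.51 and -1.27 in the 2 pairs of Nthy-ori 3-1 arrays and by 0.70 and 0.61 in the 2 pairs of TT arrays. The labelled lines were checked with cell type markers. All 7 C cell markers were well above background on each TT array, and all 7 were higher in TT than in Nthy-ori 3-1 control cells with an adjusted p of at most 0.05 (limma). On the Nthy-ori 3-1 control arrays the follicular transcription factor genes PAX8 and FOXE1 were well above background, but NKX2-1 and TSHR were not, and NKX2-1 and TG were higher in TT cells.

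**Figure D1:**
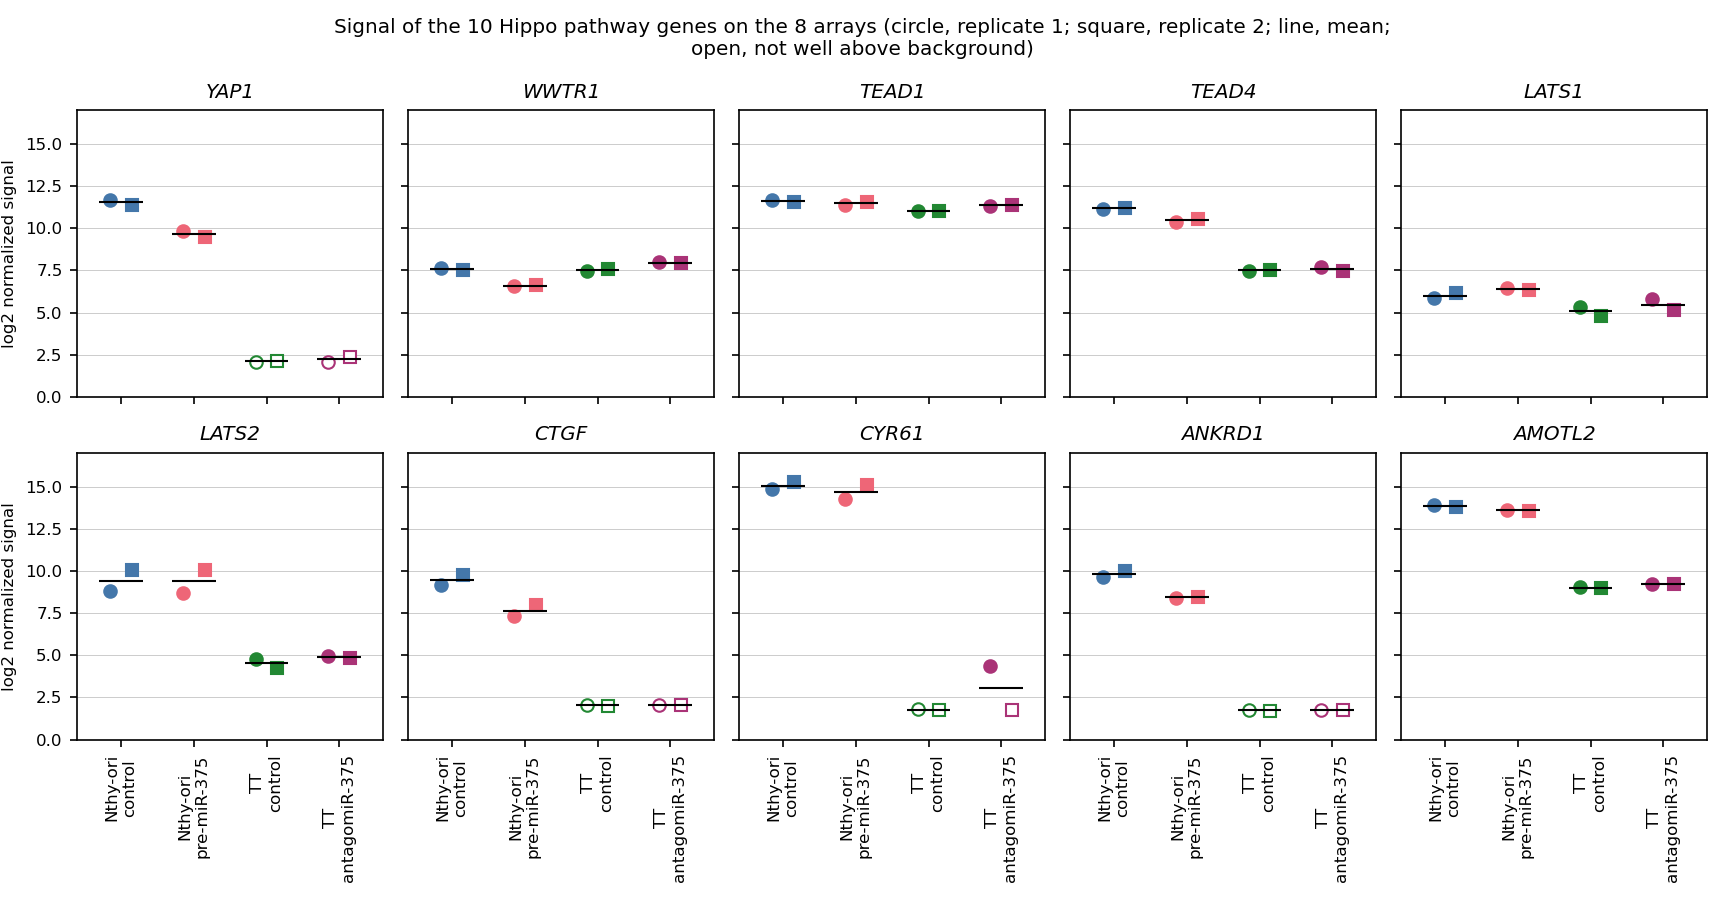
Normalized log2 signal (vertical axis) of the 10 genes, 1 panel per gene, in the 4 groups (horizontal axis), with circles for replicate 1, squares for replicate 2, a line at the group mean, and open symbols where the probe was not well above background. YAP1, CTGF and ANKRD1 lie between 7.32 and 11.70 on the Nthy-ori 3-1 arrays, lower with pre-miR-375 than in control cells, and between 1.72 and 2.37, with open symbols, on the TT arrays.

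The first comparison asked which Hippo genes differed between pre-miR-375 and control in Nthy-ori 3-1 cells. The signals of YAP1, of its paralog WWTR1, of the partner TEAD4 and of the targets CTGF and ANKRD1 were lower than control with pre-miR-375 in both pairs of arrays, to 0.272 of the control signal for YAP1 and 0.282 for CTGF. LATS1, LATS2, TEAD1, CYR61 and AMOTL2 differed by less, and LATS1 was the only gene of the 10 with a higher mean by its brightest probe. No gene of the array, and so none of the 10, had an adjusted p of at most 0.05 in the fit of this line (0% of 36333 gene names, limma), in which 1 residual degree of freedom remained. In RNA of a whole culture, fewer cells that carry a transcript and less of it per cell cannot be told apart. By an unadjusted p under 0.05, 5 of the 10 genes were lower and 0 higher, where 7.4% of all gene names were lower and 7.48% higher. All 10 genes were well above background on both arrays of a group, and of the gene names that were, 11% were lower and 10.8% higher. By the fold threshold of the methods (log2 fold change of at most -1, average of at least 6), 3 of the 10 were lower. That compares with 1.43% of all gene names and 3.26% of the 15888 gene names whose average reached 6. For this line the methods also ask for an adjusted p of at most 0.05, which no gene had in this fit. The median log2 fold change of the 10 genes was -0.54, and that of all gene names was 0.00.

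YAP1, the coactivator on which the kinase chain ends, read 11.70 and 11.37 in control cells and 9.81 and 9.51 with pre-miR-375. The groups did not overlap, and the 2 pairs differed by -1.89 and -1.86. The fit gave a log2 fold change of -1.88 (standard error, SE, 0.0803; 95% interval -2.22 to -1.53; adjusted p = 0.318 by limma). Its probe was printed on 10 spots per array, more than for any other gene of the 10, and the spots of a Nthy-ori 3-1 array varied by 4.28% to 5.97% (coefficient of variation of the linear signal). Before normalization the median spot read 3775 and 3513 in control cells and 678 and 1149 with pre-miR-375. The mean signal of the spots was 110 to 121 times the local background in control cells and 22.2 to 36.3 times with pre-miR-375, so the lower group was still well measured.

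WWTR1, which encodes TAZ, read 7.67 and 7.50 in control cells and 6.58 and 6.63 with pre-miR-375. The groups did not overlap, and the log2 fold change was -0.98 (SE 0.108, adjusted p = 0.318 by limma), just short of the fold threshold. The pairs differed by -1.08 and -0.87. Over the 13 processings described below, the log2 fold change of WWTR1 went from -1.08 to -0.64, the latter with the deposited values. The other WWTR1 probe, on chromosome 3 from 149419490 to 149419549 (hg19), was not well above background on any of the 8 arrays, so WWTR1 rests on 1 probe.

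The TEAD factors, which carry YAP and TAZ to DNA, differed from each other. TEAD4 read 11.14 and 11.22 in control cells and 10.38 and 10.58 with pre-miR-375, without overlap, and the log2 fold change was -0.70 (SE 0.0907, adjusted p = 0.318 by limma). Its probe covers 165 bases of chromosome 12 (3149391 to 3149555, hg19) with 60 bases of sequence and therefore crosses an intron. TEAD1 read 11.69 and 11.56 in control cells and 11.38 and 11.58 with pre-miR-375. These groups overlapped, and the 2 pairs differed by -0.31 and 0.01, with a 95% interval of the mean difference from -0.74 to 0.45.

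The kinase genes LATS1 and LATS2, whose products restrain YAP and TAZ, gave no common direction. LATS2 read 8.82 and 10.05 in control cells and 8.71 and 10.07 with pre-miR-375. Its 2 slides lay more than 1 apart in both groups, while within a slide the difference was -0.11 and 0.02 (95% interval of the mean -0.44 to 0.36). The brighter LATS1 probe, on chromosome 6 from 150022916 to 150022975, read 5.89 and 6.15 in control cells and 6.45 and 6.32 with pre-miR-375, a log2 fold change of 0.37 (adjusted p = 0.5 by limma). The other LATS1 probe (same chromosome, 149982383 to 149982442) had signals of 5.43 and 7.72 in control cells and 5.59 and 6.13 with pre-miR-375, and its mean difference was -0.71. The probes thus disagreed in direction, and the second rested on the control array of replicate 2, without which its remaining pair differed by 0.16.

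Of the target genes, CTGF and ANKRD1 showed the larger differences and CYR61 and AMOTL2 the smaller. CTGF (current symbol CCN2), a secreted matrix protein, read 9.17 and 9.77 in control cells and 7.32 and 7.97 with pre-miR-375. The groups did not overlap, the pairs differed by -1.85 and -1.80, and the log2 fold change was -1.82 (SE 0.0821, adjusted p = 0.318 by limma). ANKRD1, an ankyrin repeat protein of muscle and of stretched cells, read 9.66 and 9.99 in control cells and 8.39 and 8.46 with pre-miR-375. Its groups did not overlap either, and the log2 fold change was -1.40 (SE 0.120, pairs -1.27 and -1.53, adjusted p = 0.318 by limma).

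CYR61 (current symbol CCN1), a secreted relative of CTGF, read 14.84 and 15.28 in control cells and 14.24 and 15.11 with pre-miR-375. The groups overlapped, the pairs differed by -0.61 and -0.17, and the 95% interval of the log2 fold change of -0.39 ran from -1.14 to 0.37. AMOTL2, an angiomotin that binds YAP and is itself a target gene, read 13.89 and 13.80 in control cells and 13.64 and 13.57 with pre-miR-375. These groups did not overlap, but the difference was small, -0.24 (95% interval -0.58 to 0.11, adjusted p = 0.427 by limma). The 4 target genes therefore did not share a size of difference, although in both pairs all 4 were below control.

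**Figure D2:**
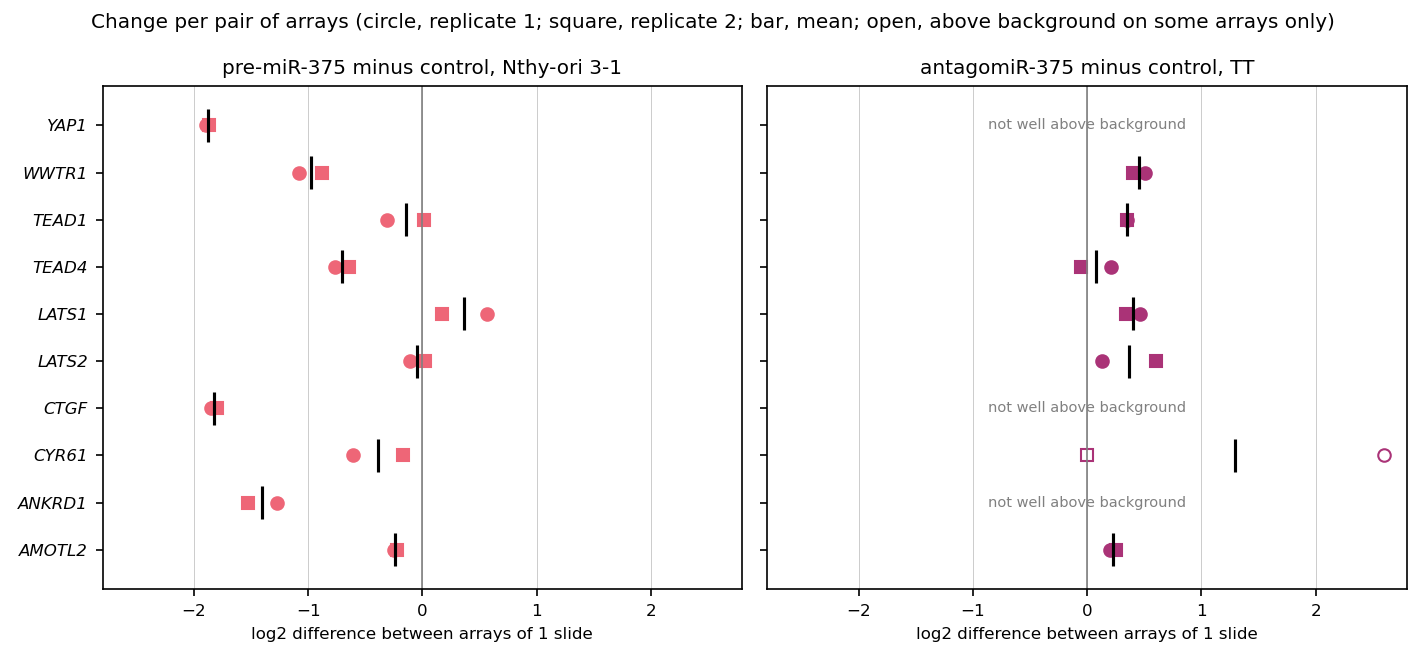
Log2 difference between the treated and the control array of a slide (horizontal axis) for the 10 genes (vertical axis), for the mimic and Nthy-ori 3-1 on the left and for the antagomiR and TT on the right, with circles for replicate 1, squares for replicate 2 and a bar at the mean. On the left YAP1, CTGF and ANKRD1 lie below -1 in both pairs, and on the right WWTR1, TEAD1, LATS1, LATS2 and AMOTL2 lie above 0 in both pairs and at most at 0.60, CYR61 is above background on 1 array only, and 3 genes have no value.

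The call in Nthy-ori 3-1 cells depended on how the signal was processed, while the direction did not for the genes at the front. YAP1 was lower under each of the 13 processings run, with log2 fold changes from -1.95 to -1.77, and CTGF and ANKRD1 were also lower under each. These 3 genes had an adjusted p of at most 0.05 (limma) under 4 of the 13. Those were the log2 values the authors deposited, normexp background correction, leaving out dim probes, and the mean of a gene's probes that were not dim. The dim-probe settings share a filter, which kept probes well above background on both arrays of a group. With normexp correction WWTR1 and TEAD4 passed as well, so that 5 of the 10 genes were called, against 1257 gene names in all. The adjusted p of YAP1 ran from 0.0234 to 0.583 over the 13 processings.

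**Figure D3:**
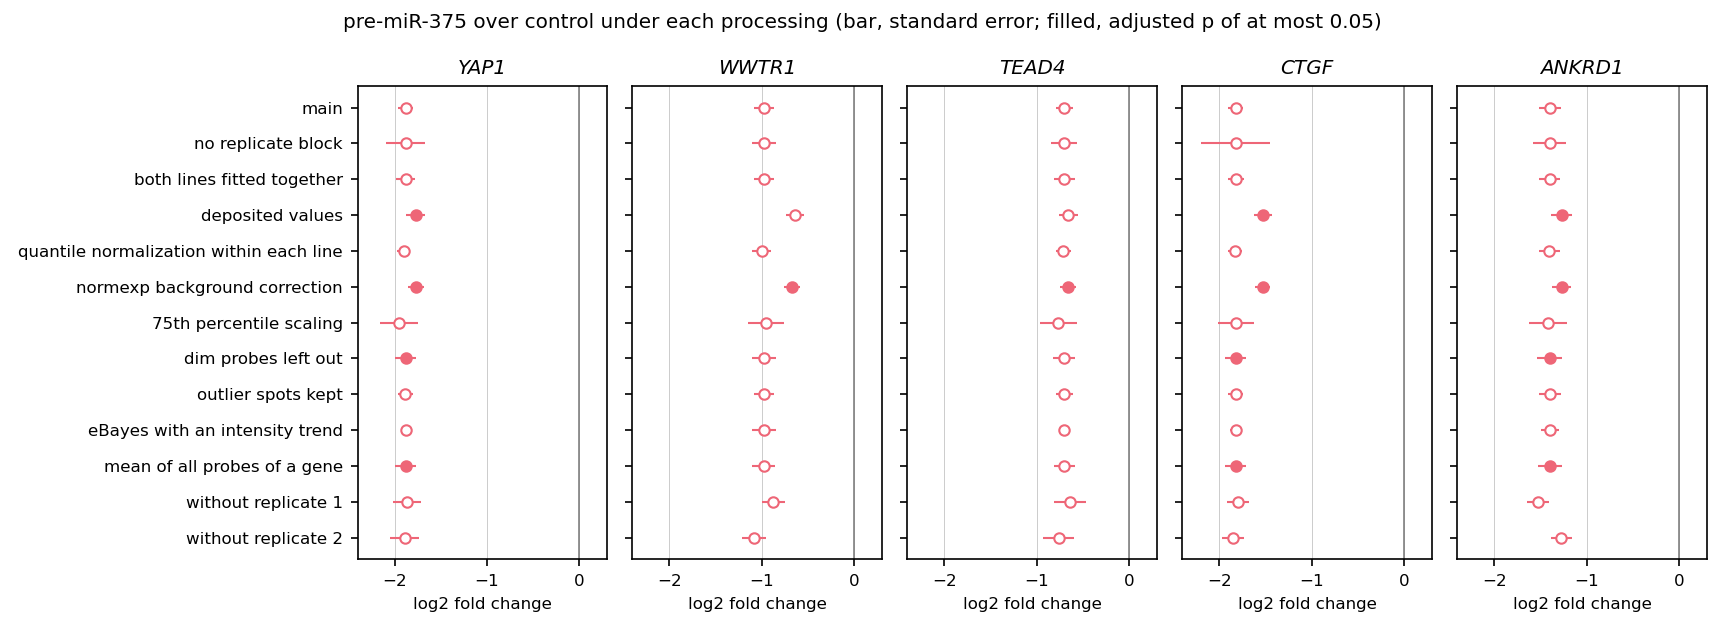
Log2 fold change of pre-miR-375 over control in Nthy-ori 3-1 cells (horizontal axis) for 5 genes under each processing (vertical axis), with the standard error as a bar and filled symbols where the adjusted p was at most 0.05. Every symbol lies below 0, and YAP1, CTGF and ANKRD1 are filled under 4 processings.

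Other genes of the pathway were taken from lists of upstream kinases and regulators, of TEAD factors and their cofactors, of further YAP and TAZ targets, and of targets of SRF and MRTF, a neighbouring route to many of the same cytoskeletal genes. Of 17 further YAP and TAZ targets, 15 were well above background on both arrays of a group, and 6 of these were lower and 1 was higher with pre-miR-375 by an unadjusted p under 0.05, with a median of -0.33. Of all gene names so measured, 11% were lower by that rule, and the median was 0.04. F3, the gene of tissue factor, differed by -1.89, followed by TGFB2, a growth factor, at -1.27 and NT5E, a cell surface nucleotidase, at -0.84. NUAK2, a kinase, was the one higher, at 0.66.

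Of 23 upstream kinases and regulators, 21 were so measured, and 7 were lower and 2 were higher by the same rule, with a median of -0.32. The larger differences lay in scaffold genes that feed LATS activation. WWC2 differed by -2.62, FRMD6 by -1.87 and WWC1, which encodes KIBRA, by -1.32. The upstream kinase gene TAOK2 was higher by 0.77 and the protocadherin gene FAT4, at an average below 6, by 1.09, whereas the relatives of TAOK2, TAOK1 and TAOK3, were at -0.42 and -0.90. The core kinase genes STK4 and STK3, which encode the mammalian Hippo kinases, differed by 0.02 and -0.32, and NF2 differed by -0.12, none of them with an unadjusted p under 0.05. Among 6 TEAD factors and cofactors, VGLL2 differed by -1.77 and VGLL4, a competitor of YAP for TEAD, by -0.69, while TEAD3 differed by -0.14. Of 18 SRF and MRTF targets, 1 was lower and 1 was higher by the same rule, FHL2, a LIM domain cofactor, at -0.85 and ACTA2, a smooth muscle actin, at 0.75.

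Some marker genes of other cells also differed with this treatment, none with an adjusted p of at most 0.05 (limma). By an unadjusted p under 0.05, 1 of 7 C cell markers was higher and 0 were lower. Of 4 epithelial markers 2 were lower, and of 4 mesenchymal markers 1 was, with 0 higher in either list. Of all gene names 7.48% were higher and 7.4% lower by that rule. On the 2 Nthy-ori 3-1 control arrays 1 of the 7 C cell markers was well above background, RET, and on the 2 pre-miR-375 arrays 5 were, with CALCA, CHGA, CHGB and SCG3 added. The log2 of the summed linear signal of all 7 was 6.87 to 7.27 in control cells, 8.11 to 8.85 with pre-miR-375 and 18.9 to 19.1 on the TT arrays. The highest pre-miR-375 array stood 10.06 log2 units below the lowest TT array. The epithelial keratin gene KRT8 also differed with pre-miR-375, by -2.0, and the mesenchymal gene FN1, for fibronectin, by -0.92. The medians of the 4 epithelial and the 4 mesenchymal markers were -0.50 and -0.10. The part of these genes in the differences of the Hippo genes was not tested.

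The second comparison asked which Hippo genes differed between TT cells given antagomiR-375 and their control. Of the 10 genes, 6 were well above background on both arrays of a group, and all 6 were higher with antagomiR-375 on average, by 0.08 to 0.45. WWTR1, TEAD1 and LATS1 were the 3 with an unadjusted p under 0.05, where 4.92% of all gene names were higher and 4.89% were lower by that rule (5.69% and 5.47% of those well above background on both arrays of a group). Over the 13 processings between 0 and 3 of the 10 genes were higher by it, WWTR1 in 10, TEAD1 in 8 and LATS1 in 4, and LATS1 differed by 0.11 with normexp correction. None of the 36328 gene names had an adjusted p of at most 0.05 (0%, limma), and the lowest was 0.512. By the fold threshold of the methods, a log2 fold change of at least 0.6 at an average of at least 6, 0 of the 10 genes and 1.3% of all gene names were higher, though the average reached 6 in 4 of the 10 only. YAP1, CTGF and ANKRD1 were not well above background on any of the 4 TT arrays, so no fold is given for them.

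WWTR1 read 7.47 and 7.56 in TT control cells and 7.98 and 7.96 with antagomiR-375. The groups did not overlap, the pairs differed by 0.51 and 0.40, and the log2 fold change was 0.45 (SE 0.0909, 95% interval 0.08 to 0.82, adjusted p = 0.512 by limma). It was higher under each of the 13 processings, by 0.37 to 0.51. TEAD1 read 11.001 and 11.05 in control cells and 11.35 and 11.40 with antagomiR-375, a difference of 0.35 in both pairs. TEAD4, in contrast, read 7.48 and 7.53 in control cells and 7.68 and 7.48 with antagomiR-375. Its groups overlapped, and the 95% interval ran from -0.41 to 0.56.

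Both LATS1 probes were higher with antagomiR-375 in both pairs, at 5.33 and 4.81 in control cells and 5.79 and 5.15 with antagomiR-375 for the brighter probe (log2 fold change 0.40, SE 0.0927) and by 0.56 for the other (SE 0.133, adjusted p = 0.512 by limma for each). The groups of the brighter probe overlapped, since its 2 slides lay apart. LATS2 read 4.80 and 4.24 in control cells and 4.93 and 4.84 with antagomiR-375, near the lower end of what the arrays measured, with a 95% interval of the difference from -0.38 to 1.1. AMOTL2 read 9.02 and 8.98 in control cells and 9.22 and 9.23 with antagomiR-375. These groups did not overlap, and the log2 fold change was 0.22 (95% interval -0.12 to 0.57).

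CYR61 was well above background on 1 of the 4 TT arrays, antagomiR-375 replicate 1, where it read 4.39, while the other 3 arrays read 1.75 to 1.79. A single array carried that value, so it gives no fold for the group. The YAP1 spots of the TT arrays were on average 1.20 to 1.39 times the local background. By the labels, the RNA integrity number was 8 in the TT control cultures and 9 in the antagomiR-375 cultures, and the part of this difference in these small changes was not tested.

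In the other lists, 22 of the 23 kinases and regulators were well above background on both arrays of a group, and 3 were higher with antagomiR-375 and 1 was lower by an unadjusted p under 0.05. FRMD6 was higher by 0.55, WWC3 by 0.43 and AJUBA, at an average below 6, by 0.67, and AMOTL1, a relative of AMOTL2, was at -0.48. Among the cofactors VGLL3 was at -0.54. Of the 17 further YAP and TAZ targets, 10 were so measured, and 2 were higher and 0 lower. FJX1, a Golgi protein of the Fat and Dachsous branch, was higher by 0.36 and IGFBP3, at an average below 6, by 1.5. In the SRF and MRTF list 16 of 18 were so measured and 3 were higher, FLNA, an actin crosslinker, by 0.71, FHL2 by 0.55 and CNN2 at least 2.59-fold against a control group not well above background, and the median was 0.33.

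Genes below control in both pairs with pre-miR-375 and above control in both pairs with antagomiR-375 were counted among those well above background on all 8 arrays. Of the 6 Hippo genes measured throughout, 2 were of this kind, WWTR1 and AMOTL2. In the list of kinases and regulators 6 of 18 were, AJUBA, FRMD6, MOB1A, TAOK3, WWC1 and WWC3. Among the further YAP and TAZ targets 3 of 9 were, FJX1, IGFBP3 and TGFB2, and among the TEAD factors and cofactors 2 of 3, TEAD3 and VGLL4. The SRF and MRTF targets had the same share, 5 of 15, and 2 of 3 epithelial markers, KRT8 and KRT18, were of this kind too, against 2126 of 16971 among all gene names (12.5%). The arrays and slides of the lines are separate, but the count includes small differences, and the list counts were not tested.

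The third comparison set the control groups against each other, TT over Nthy-ori 3-1, to ask how the pathway differs between the lines. In TT cells 9 of the 10 genes were lower with an adjusted p of at most 0.05 (limma), and WWTR1 was the exception. In all 30.8% of 36324 gene names passed that threshold, 15.1% lower and 15.7% higher. With dim probes left out, 11096 of 22683 gene names passed, 5437 lower and 5659 higher. The median log2 difference of the 10 genes was -4.87, also with the genes not measured in TT cells set to their bound, and that of all gene names was -0.05. Line, control reagent and its concentration, RNA integrity number, culture medium and slide changed together here and cannot be told apart. By the labels, Nthy-ori 3-1 controls had 5 nM and an integrity number of 9, and TT controls had 20 nM and 8.

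YAP1, at 11.70 and 11.37 in Nthy-ori 3-1 control cells, read 2.07 and 2.16 in TT control cells, where it was not well above background. On the scale of the processed signal it was thus at least 245-fold lower in TT cells (adjusted p = 5.15e-06 by limma). For a probe that was not well above background in TT cells, the fold is a lower bound, set by the dimmest probe well above background on those arrays. The adjusted p beside such a bound is that of the fitted log2 difference, which uses the TT readings at background. CTGF was at least 58.4-fold lower (adjusted p = 2.60e-05), ANKRD1 at least 74.8-fold lower (adjusted p = 4.62e-06) and CYR61 at least 2816-fold lower (adjusted p = 0.000399, all by limma). The adjusted p depended on the fit. With the control arrays alone and the replicate number as a block, it was 0.0231 for YAP1, ANKRD1 and CYR61 and 0.0240 for CTGF (limma). CYR61, at 14.84 and 15.28 in Nthy-ori 3-1 cells, read 1.79 and 1.76 in TT cells. These bounds hold for the processed signal only. With normexp background correction, in which an offset of 50 was added to every signal before the log, the fitted log2 differences were -5.52 for YAP1, -3.54 for CTGF, -4.08 for ANKRD1 and -9.21 for CYR61, all smaller than the bounds, and all 4 genes were still called. These 4 genes were on the TT control arrays at the level of empty signal, so their order in TT cells is not known.

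The others of the 10 were measured in both lines. AMOTL2 fell from 13.89 and 13.80 to 9.02 and 8.98 (log2 difference -4.84, SE 0.112, adjusted p = 8.5e-06 by limma). LATS2 fell from 8.82 and 10.05 to 4.80 and 4.24, a difference of -4.91 with a standard error of 0.507, the widest among the genes measured in both lines (adjusted p = 0.00138 by limma), and with normexp correction the difference was -3.08. TEAD4 fell from 11.14 and 11.22 to 7.48 and 7.53, by 3.68 on the log2 scale (adjusted p = 5.11e-05 by limma). None of these 3 groups came near overlap.

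TEAD1, LATS1 and WWTR1 differed far less between the lines. TEAD1 fell from 11.69 and 11.56 to 11.001 and 11.05, a difference of -0.60 (SE 0.146, adjusted p = 0.0302 by limma). The LATS1 difference was -0.95 (adjusted p = 0.0485 by limma) by the brighter probe and -1.84 (adjusted p = 0.140) by the other. The calls of TEAD1 and LATS1 were lost under several processings, of 14 run, TEAD1 keeping it in 8 and LATS1 in 4. That of LATS2 was lost with the control arrays alone and the replicate number as a block (adjusted p = 0.0573 by limma). WWTR1 read 7.67 and 7.50 in Nthy-ori 3-1 cells and 7.47 and 7.56 in TT cells, so the groups overlapped. Its difference of -0.07 had a 95% interval from -0.40 to 0.26. TT cells thus carried TAZ transcript at a signal like that of Nthy-ori 3-1 cells within this interval, beside a YAP1 signal at background.

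**Figure D4:**
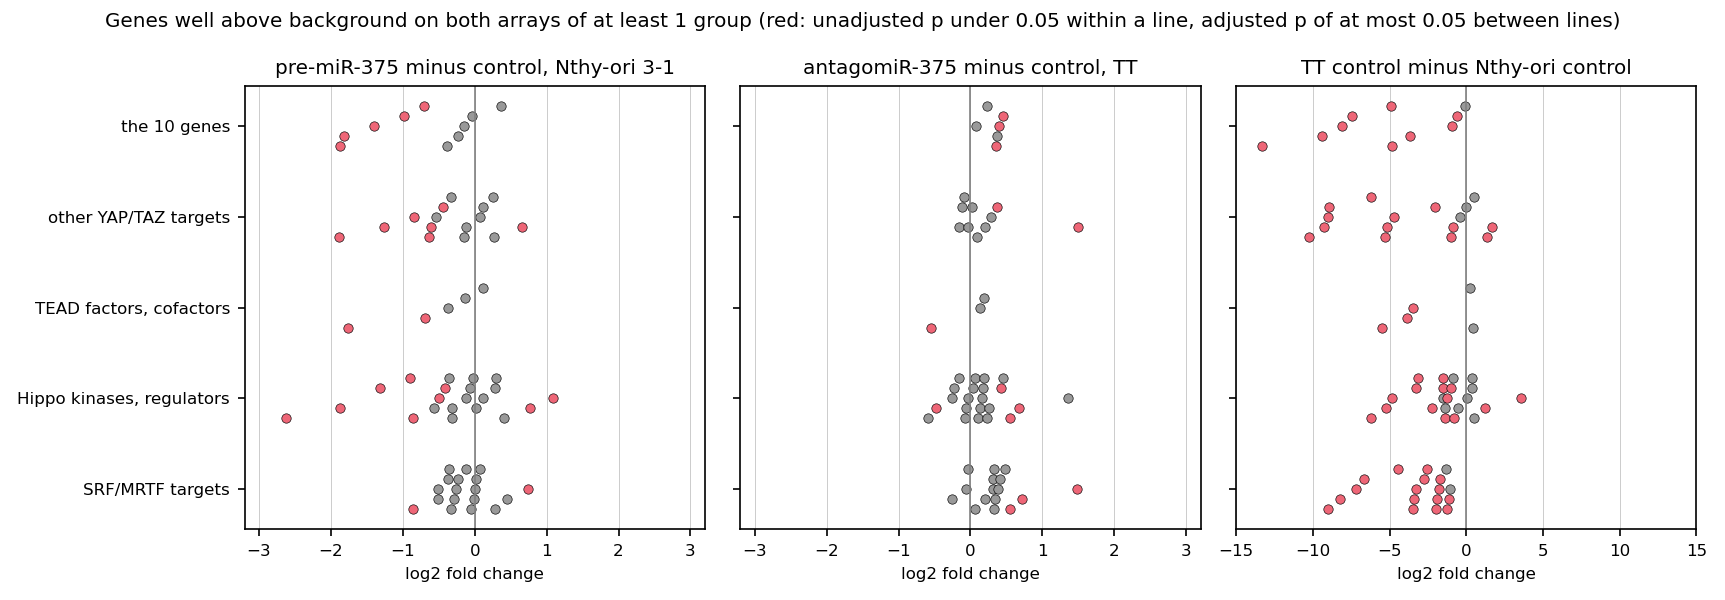
Log2 fold change (horizontal axis) of the genes of 5 lists (vertical axis) in the 3 comparisons, for genes well above background on both arrays of at least 1 group, in red where the unadjusted p was under 0.05 within a line or the adjusted p at most 0.05 between lines. In the right panel, whose axis is wider, most Hippo genes, further YAP and TAZ targets and SRF and MRTF targets lie below 0, and genes not measured in TT cells are drawn at their fitted value, which is no bound.

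The further YAP and TAZ targets went the same way, with 13 of 17 past the threshold, 11 of them lower in TT cells, and a median of -2.01 with the genes not measured in TT cells set to their bound. MYOF, at least 428-fold lower, PTPN14, a phosphatase that binds YAP, at least 230-fold lower, and CCDC80, at least 182-fold lower, were among them, and NUAK2 rose by 1.36. Among 23 kinases and regulators 14 passed. The LIM domain genes AJUBA, WTIP and LIMD1, whose products restrain LATS, fell by 6.23, 5.20 and 3.15, and STK3 rose by 1.24. TEAD3 fell by 3.49, and TEAD2 was at least 7.21-fold lower. In the SRF and MRTF list 16 of 18 genes passed and all 18 were lower, with CNN2 at least 275-fold lower and MYL9 down by 7.21. The mesenchymal marker VIM, for vimentin, fell by 11.72 between these lines and FN1 by 6.67, while CDH2 rose by 0.87. The epithelial markers were split, with CDH1 and EPCAM higher in TT cells and KRT18 and KRT8 lower, at -1.18 and -0.48. The part of such differences between cell types in the Hippo genes was not tested.

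The genes with a profile most like that of YAP1 were sought over the 8 arrays among 16971 genes well above background on every array, by the root mean square of the difference between the profiles after each was centred on its own mean. YAP1 itself lay at background on the 4 TT arrays, so its level there is an upper limit, and a distance computed from these readings sets no order. The 5 genes with the smallest computed distance, 0.43 to 0.71 log2 units, were BASP1, CD44, a cell surface receptor for hyaluronan, CDC42EP1, LDHB, a lactate dehydrogenase subunit, and SLC16A3, a lactate transporter. CD44 read 13.63 and 14.25 in Nthy-ori 3-1 control cells, 12.55 and 13.04 with pre-miR-375 and 4.72 to 5.20 on the TT arrays. Most of this likeness is the gap between the lines.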

How the data were processed

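RNA of transfected Nthy-ori 3-1 and TT cells was hybridized to 8 one-colour Agilent arrays, 2 per group. The authors deposited the Feature Extraction 10.10.1.1 output of each array (design annotated on hg19), with an intensity per spot that is background subtracted but not normalized between arrays, and a table of normalized log2 values, which served as an alternative. Per the labels the RNA was polyA, whereas the methods name total RNA and higher reagent concentrations. Control spots and outlier spots (341 to 428 per array) were dropped, the log2 processed intensity was averaged over the spots of a probe, and limma 3.58.1 (R 4.3.3) quantile normalized the 8 arrays together. The fits (lmFit, eBayes) took 1 line at a time and had the slide, which is the replicate number, as a block. The differences between the slides in control and in treated arrays correlated across probes with an r of 0.785 in Nthy-ori 3-1 and 0.329 in TT cells. The control groups were compared in a fit of 4 group means over 8 arrays with the slide as a random block (correlation 0.500). The Benjamini-Hochberg adjustment ran over all probes tested, and shares called were counted over gene names by the brightest probe. The steps were tested on simulated data.

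A signal counted as well above background by the Feature Extraction flag. The genes and lists were chosen with earlier results of these data known. Named genes were the 10 genes, up to 3 per list and direction with the largest log2 fold change (average of at least 6, unadjusted p under 0.05, the same direction in both pairs), SEC23A and the 5 genes most like YAP1. Other genes of the lists, such as STK3, STK4, NF2, TAOK1, TAOK3, FAT4, TEAD2, ACTA2 and the markers, were named after their values were seen. Sequences came from RefSeq tables (GRCh38.p14) and from the probe column of the files.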

Additional observations from a re-analysis of the deposited data

How the results depend on the processing

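In Nthy-ori 3-1 cells the directions of YAP1, WWTR1, TEAD4, CTGF and ANKRD1 were the same under all 13 settings, and the adjusted p of limma's test for YAP1 ran from 0.0234 to 0.583. The number of genes called there went from 0 to 465 with the deposited values and 1257 with normexp background correction. It went to 774 with dim probes left out and 790 with the mean of a gene's probes that were not dim. The number of the 10 genes called went from 0 to 3, 5, 3 and 3. In the same order YAP1 was called at log2 fold changes of -1.77, -1.77, -1.88 and -1.88. The prior degrees of freedom were 0.994 in the reported fit against 3.04 with the deposited values and 3.03 with normexp; the cause was not tested. Without the replicate block, 0 genes were called in either line, YAP1 was at -1.88 with an adjusted p of 0.39, and no adjusted call changed in either line, but LATS1 under antagomiR-375 went from an unadjusted p of 0.0449 to 0.324. Between the lines LATS1 lost its call without the random block (adjusted p = 0.0626). For the contrast between the lines, genes called went from 11201 to 9519 with the control arrays alone. They went to 5291 with the replicate number as a block as well. The number of the 10 genes called went from 9 to 7 and 6 in the same order. LATS1 reversed under pre-miR-375 to -0.17 with the mean of its probes that were not dim. With 1 replicate of a line left out, the remaining pair was fitted exactly, so the spread in these settings came from the other line. Under pre-miR-375, TEAD1 then ran from -0.31 to 0.0129, LATS2 from -0.11 to 0.0240 and YAP1 from -1.89 to -1.86. Under antagomiR-375, TEAD4 ran from -0.0506 to 0.204 and the fitted CYR61 value, which is no fold because 1 of the 4 TT arrays was above background, from -0.00545 to 2.60. Between the lines, with 1 control array left out and the lone array assumed to vary like the other groups, WWTR1 ran from -0.16 to 0.0195. For antagomiR-375, 0 genes were called under every alternative. With 2 arrays a group, the number of arrays limited the precision, and genes not well above background in TT cells have bounds only.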
